A study of Mus musculus with 10 samples.

Results

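Single-cell RNA sequencing of CD45+ cells sorted from SW1 melanoma tumors was searched for macrophages that carried message for the inflammatory mediators Il1a, Cxcl1 and Tnf. Members were barcodes with at least 1000 detected genes and at most 10% mitochondrial transcripts that held at least 10 UMIs (unique molecular identifiers, each standing for 1 captured transcript) of C1qa, C1qb and C1qc together, at least 5 UMIs of Il1a, Cxcl1 and Tnf together, at most 2 UMIs of the proliferation genes Mki67, Top2a and Birc5 together, and no UMI of Cd3e, Cd3d or Cd3g or of 1 further gene. They were 440 of the 41936 barcodes in the matrices, or 440 of 23893 after the gene and mitochondrial limits. Macrophages that met every other criterion with an Il1a, Cxcl1 and Tnf sum of at most 4 numbered 1476 and served as the comparison class (other C1q macrophages).

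All mice were C3H/HeJ animals of 4 to 6 weeks, labelled female, bearing subcutaneous SW1 tumors, a melanoma line that grows in this strain. C3H/HeJ mice carry a loss-of-function allele of Tlr4, the lipopolysaccharide receptor, so controls and treated mice share it. The 5 gene expression libraries were a pretreatment library taken after 10 days of tumor growth by the labels and later by the study's methods (day 0, a cohort of 3 mice), control water for 7 or 21 days, and water with L-fucose (L-fuc) for 7 or 21 days (cohorts of 6 mice in 1 field of the labels and 5 in another; the dose is given as 100 mM in 1 field and 100 nM in another). Since a condition was a single library, conditions were not tested against each other, and the intervals given for 1 library cover counting error only. The labels do not say how many tumors each library pooled. Total depth was 14439185 UMIs on day 0, 119047810 for control day 7, 88986101 for L-fuc day 7, 21727157 for control day 21 and 16589803 for L-fuc day 21.

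Tumor necrosis factor and interleukin 1 alpha are early alarm cytokines of macrophages. They act through receptors that switch on the transcription factor NF-kB, and CXCL1 is a chemokine that draws neutrophils through the receptor CXCR2. Macrophages that sense damage or microbes induce these genes within a short time, together with immediate early transcription factors, feedback inhibitors of NF-kB and, where interferon beta is made, interferon-stimulated genes. The complement genes C1qa, C1qb and C1qc mark mature tissue macrophages.

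The members were found in every library. They numbered 34 on day 0, 103 in control day 7, 114 in L-fuc day 7, 141 in control day 21 and 48 in L-fuc day 21, and no member barcode was shared between libraries. The label was checked against marker genes. Csf1r, the receptor for the macrophage growth factor, stood at 349 CPM (UMIs for every 1000000 UMIs of the class) on day 0, 213 CPM in control day 7, 275 CPM in L-fuc day 7, 318 CPM in control day 21 and 296 CPM in L-fuc day 21, against 225 to 373 CPM in other C1q macrophages. Adgre1, which encodes F4/80, stood between 168 and 329 CPM. The 7 neutrophil markers held 361 UMIs in all members, 231 of them of Csf3r, with Mmp9 and Cxcr2 at 0. Their summed level was 33.3 to 82.1 CPM in members and 24.3 to 143 CPM in other C1q macrophages. The 4 cDC2 markers held 39 UMIs with Cd209a at 0, and the 4 cDC1 markers, led by Batf3, 35.6 to 74.6 CPM against 46.0 to 96.0 CPM. No member barcode carried an assembled T cell receptor (exact 95% upper limit 0.835%), against 5 of 1476 other C1q macrophages; Cd3 UMIs were barred by the rule.

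C1q UMIs were not confined to macrophages. Among barcodes with at least 3 Cd3 UMIs, which should lack complement C1q, 32.3% on day 0, 86.9% in control day 7, 68.7% in L-fuc day 7, 54.4% in control day 21 and 40.6% in L-fuc day 21 held at least 1 C1q UMI, and between 19.3% in control day 21 and 33.1% in control day 7 reached the 10 UMIs that the rule asks of a macrophage. Their C1q level was 2726 to 6466 CPM, whereas the members held 12363 to 23877 CPM. Sparc, an SW1 tumor transcript, reached 685 CPM in the members of control day 7 and 267 CPM in those of L-fuc day 7, against 1.85 CPM on day 0, 21.0 CPM in control day 21 and 15.9 CPM in L-fuc day 21. It was lower in members than in other C1q macrophages in every library. In the L-fuc day 21 library immunoglobulin transcripts made up 4.08% of the members' UMIs, 4.26% of those of other C1q macrophages and 6.90% of those of the Cd3 barcodes, against 0.0261% in members of control day 21; 40368 of the 41050 UMIs in members lay in 1 barcode. Free RNA and doublets cannot be told apart in these values, and their part in the results was not tested.

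The mediators that defined the class were unevenly carried. Tnf was detected in 421 of the 440 members (95.7%), Il1a in 196 (44.5%) and Cxcl1 in 167 (38.0%). All 3 were found in 90 members (20.5%), and 186 (42.3%) held only 1 of them. Tnf gave the most UMIs in 314 members (71.4%), Cxcl1 in 79 (18.0%) and Il1a in 47 (10.7%), so most barcodes are better described as Tnf macrophages than by all 3 names. The summed count had a median of 18 and reached 291. At the threshold, 70 C1q macrophages held 3 UMIs and 49 held 4, just outside, whereas 37 held 5 and 32 held 6, just inside. These values chose the members and are given as a description.

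Tnf stood at 1323 CPM on day 0, 1331 in control day 7, 1646 in L-fuc day 7, 1622 in control day 21 and 1009 in L-fuc day 21. Cxcl1 stood at 682, 761, 287, 607 and 424 CPM in the same order, and Il1a at 429, 394, 307, 197 and 154 CPM. L-fuc day 7 was the lowest library for Cxcl1 and the highest for Tnf. The share of members in which Cxcl1 led was 34.0% in control day 7 and 8.77% in L-fuc day 7, while it was 14.7%, 14.9% and 16.7% on day 0, in control day 21 and in L-fuc day 21.

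The question of what else these macrophages expressed was addressed by summing UMIs per library and class and comparing members with other C1q macrophages of the same library. The 13 genes of the rule were left out. The remaining genes were measured in the same barcodes that the rule had chosen, and members were also deeper (median 8065 to 17637.5 UMIs a barcode over the 5 libraries, against 5075 to 8858), so the p-values describe these barcodes and are not independent of the selection. Of 8385 genes, 523 were higher (6.24%) and 225 lower (2.68%) at an adjusted p under 0.05 (edgeR quasi-likelihood test with library as a block, Benjamini-Hochberg adjustment). Without the L-fuc day 7 library 345 were higher and 76 lower, and 141 and 142 were lower without control day 7 and without control day 21. With every barcode thinned to 3000 UMIs, only 3787 genes could be tested, of which 280 were higher and 75 lower.

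Interferon beta was the highest of the named genes. Ifnb1 stood at 79.4 CPM on day 0, 357 in control day 7, 421 in L-fuc day 7, 365 in control day 21 and 303 in L-fuc day 21, against 22.1, 18.0, 17.7, 22.8 and 14.8 CPM in other C1q macrophages. Every member value lay above every value of other C1q macrophages, and day 0 was the lowest of the member values. The log2 difference was 4.22 ± 0.23 (SE, 5 libraries; edgeR, adjusted p = 2.1e-08). The members were 1.05% of all barcodes and held 2036 of 5608 Ifnb1 UMIs (36.3%), but this share ran from 6.67% on day 0 and 22.7% in control day 7 through 35.1% in L-fuc day 21 and 42.8% in L-fuc day 7 to 60.4% in control day 21. High Ifnb1 was not particular to these macrophages. In 264 monocyte barcodes, defined by Ly6c2 and Plac8 and low in C1q, it ran from 0 to 1103 CPM over libraries (median 34.0). An Ifnb1 UMI was found in 14.7% of members on day 0, 47.6% in control day 7, 37.7% in L-fuc day 7, 47.5% in control day 21 and 43.8% in L-fuc day 21, against 4.36, 5.94, 2.50, 1.75 and 9.38% of the Cd3 barcodes, whose median depth was 5612 to 13376.5 UMIs. After thinning to 3000 UMIs the shares were 15.2, 38.8, 30.1, 33.1 and 21.3% of members, in the order of libraries above, and 1.99 to 3.62% of other C1q macrophages. L-fuc day 21 then stood below L-fuc day 7, where it had stood above it before thinning. The message was concentrated, since the top 10% of members by Ifnb1 held between 58.8 and 90.7% of the members' UMIs.

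**Figure D1:**
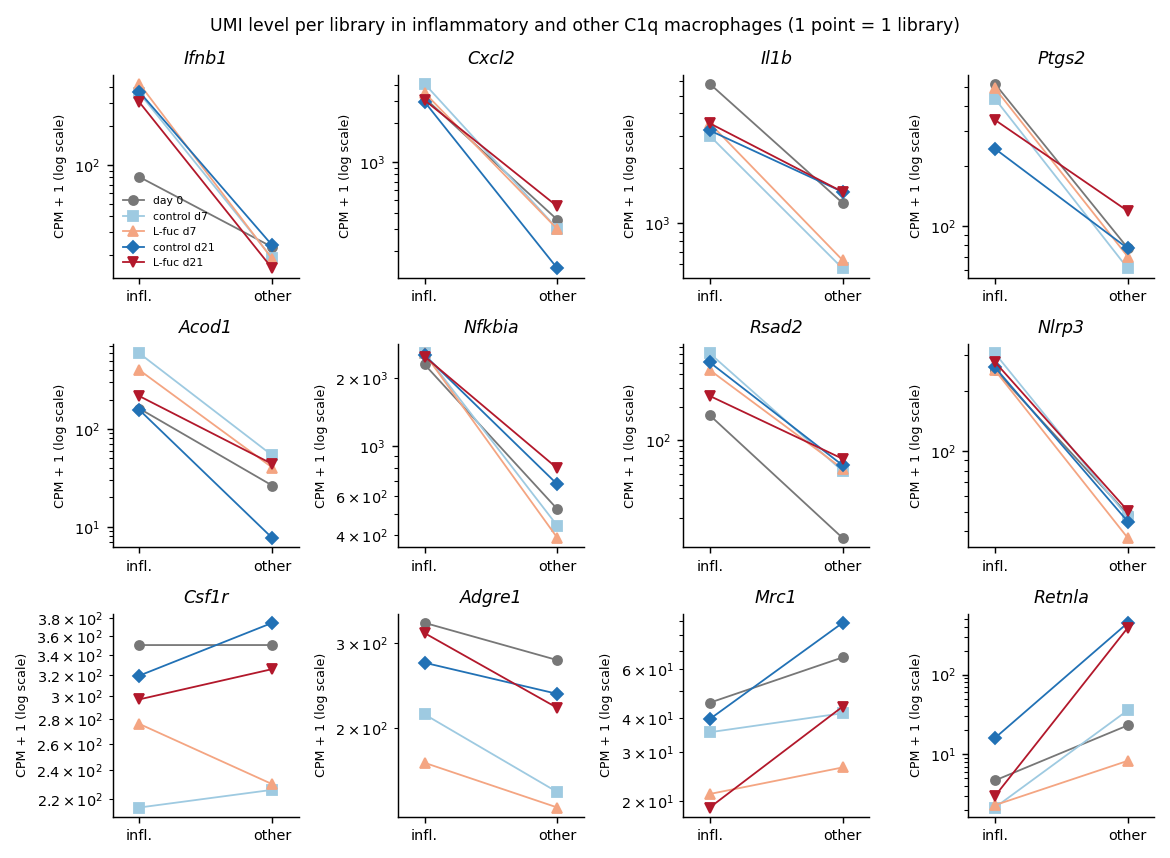
Level of selected genes (CPM + 1, log axis) in the members (infl.) and in other C1q macrophages, with 1 point per library and class, joined by lines within a library. Ifnb1 and Cxcl2 sit higher in members than in other C1q macrophages in all 5 libraries, and Retnla sits lower.

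NF-kB target and feedback genes were higher nearly throughout. Of the 21 genes in the list, 20 rose and none fell (median log2 difference 1.19, against -0.01 over all genes tested), Sod2 being the gene that did not pass. Without the library block, the term that pairs the classes within a library, 14 rose. Nfkbia, the inhibitor that returns NF-kB to the cytoplasm, stood at 2296 CPM on day 0, 2573 in control day 7, 2569 in L-fuc day 7, 2528 in control day 21 and 2490 in L-fuc day 21, against 389 to 792 CPM in other C1q macrophages (log2 difference 2.32 ± 0.14, adjusted p = 4.1e-08 by edgeR). Tnfaip3, the deubiquitinase A20, was higher by 2.18 ± 0.16, and Nfkbiz, an atypical IkB, by 1.87 ± 0.14. The subunit genes rose less, with Rel at 1.19 ± 0.15, Nfkb1 at 0.91 ± 0.13 and Rela at 0.68 ± 0.13.

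Chemokines moved in both directions. Cxcl2, which like Cxcl1 draws neutrophils, stood at 3165, 4080, 3470, 2951 and 3036 CPM in members in the order of libraries above, and at 146 to 448 CPM in other C1q macrophages (3.65 ± 0.18, adjusted p = 7.1e-09 by edgeR). It was the only other neutrophil chemokine of its list with enough counts to test. Cxcl2 was higher still in 51 neutrophil barcodes defined by their own markers, at 11625 to 38627 CPM over libraries. In the monocyte barcodes it ran from 164 to 13550.5 CPM. Of 9 CC chemokines tested, Ccl4 (2.87 ± 0.14), Ccl3 (2.66 ± 0.16), Ccl2 (2.45 ± 0.18) and Ccl7 (2.22 ± 0.25) rose, Ccl8 fell (-1.27 ± 0.17), and 4 did not pass. Without the library block Ccl7 and Ccl8 did not pass. Among interferon-induced chemokines Cxcl10 rose by 2.52 ± 0.09 and Cxcl16 by 0.50 ± 0.11, while Cxcl9 fell by 0.60 (adjusted p = 0.047, edgeR). That call was lost when any library other than L-fuc day 7 was left out, and in L-fuc day 7 Cxcl9 was at 1406 CPM in members and 1115 CPM in other C1q macrophages. The calls of Cxcl9 and Cxcl16 were lost without the block.

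Short motifs were looked for in the 250 bases before the start site of RefSeq promoters, on both strands, and the windows below are shown because they hold the matches of genes that separated the classes, beside Cxcl1 of the rule. A kappaB motif (GGGA and TTCC with any 2 bases between them) was present in 1.21% of 32851 promoters, an interferon-stimulated response element (GAAA and GAAA with any 2 bases between them) in 2.98%, and the AP-1 motif TGANTCA in 6.75%. Capitals mark the matches, which may lie on either strand. Coordinates are GRCm38.p6, and each line reads 5′ to 3′ along the gene's strand.
Ifnb1, chr4:88522856-88522955, minus strand: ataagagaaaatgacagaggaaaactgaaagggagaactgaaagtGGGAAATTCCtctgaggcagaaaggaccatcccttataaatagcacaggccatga
Cxcl1, chr5:90891129-90891228, plus strand: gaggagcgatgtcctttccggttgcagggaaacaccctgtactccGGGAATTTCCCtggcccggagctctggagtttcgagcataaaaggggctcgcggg
Cxcl2, chr5:90903757-90903856, plus strand: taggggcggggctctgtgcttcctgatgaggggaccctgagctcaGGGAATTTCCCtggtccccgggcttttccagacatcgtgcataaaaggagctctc
Nfkbia, chr12:55492648-55492747, minus strand: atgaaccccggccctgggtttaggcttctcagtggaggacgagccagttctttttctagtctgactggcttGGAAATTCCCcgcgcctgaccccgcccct
Ifit1, chr19:34640749-34640848, plus strand: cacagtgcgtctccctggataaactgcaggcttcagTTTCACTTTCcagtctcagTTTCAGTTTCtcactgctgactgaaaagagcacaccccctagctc
Rsad2, chr12:26456503-26456602, minus strand: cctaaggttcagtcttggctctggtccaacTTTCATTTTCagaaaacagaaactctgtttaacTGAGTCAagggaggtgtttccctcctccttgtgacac
Isg15, chr4:156200836-156200935, minus strand: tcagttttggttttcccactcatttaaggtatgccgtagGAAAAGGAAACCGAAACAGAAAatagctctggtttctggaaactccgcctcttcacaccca

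The neighbouring genes Cxcl1 and Cxcl2 shared the run GGGAATTTCCC, which reads as the kappaB motif on both strands and so gives a pair of overlapping matches. In Rsad2 the capitals mark a response element and an AP-1 match, and in Isg15 overlapping response elements. Of the 12 genes with the highest differences, 10 had a promoter in the table, and the kappaB motif was found in 3 of them (Ifnb1, Cxcl2 and Il6), the response element in 2 (Ifit1 and Rsad2) and AP-1 in 3 (Csrnp1, Il6 and Rsad2). Of 18 NF-kB list genes with a promoter, 2 held the kappaB motif (Nfkbia and Nfkb2), none the response element and 3 AP-1 (Nfkb2, Nfkbie and Tnfaip3). Of 9 interferon-stimulated genes with a promoter, 5 held the response element (Ifit1, Ifit3, Isg15, Rsad2 and Gbp2), 1 the kappaB motif (Ifit2) and 3 AP-1 (Gbp2, Ifit3 and Rsad2). Of Il1a, Cxcl1 and Tnf, Cxcl1 held a kappaB match and Il1a an AP-1 match, and these letters were not in the Tnf window. A match describes letters in this window and no binding was measured.

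Interferon-stimulated genes did not move as 1 group. Of 11 tested, 6 rose and none fell: Ifit1 (3.49 ± 0.16), Rsad2 (3.14 ± 0.20), Oasl1 (2.59 ± 0.21), Isg15 (2.44 ± 0.13), Ifit2 (2.06 ± 0.12) and Ifit3 (1.18 ± 0.20). Among those that did not pass were Irf7, Usp18, Ifi44 and Gbp2. Isg15, a ubiquitin-like protein, stood at 739 CPM on day 0, 1338 in control day 7, 1192 in L-fuc day 7, 991 in control day 21 and 647 in L-fuc day 21. Every one of these was above the highest value of other C1q macrophages, 227 CPM. When members were divided by whether a UMI of Ifnb1 remained after thinning to 3000 UMIs, Ifit1, Ifit2, Isg15, Rsad2, Oasl1, Cxcl10, Ccl3, Ccl4 and Tnf were higher in the Ifnb1 barcodes in 5 of 5 libraries. That division was chosen after the values had been seen and is a description.

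Cytokines and enzymes of acute activation were also higher. Of 14 cytokines and growth factors tested, 10 rose and none fell (median 1.94). Without a filter on low counts 20 were tested, of which 10 rose and 1 fell (median 1.25). Without control day 21, 9 of 12 rose and 1 fell. Il1b stood at 5807 CPM on day 0, 3016 in control day 7, 3532 in L-fuc day 7, 3225 in control day 21 and 3529 in L-fuc day 21, against 566 to 1487 CPM in other C1q macrophages (2.01 ± 0.19), and Il1rn, its natural antagonist, rose by 2.42 ± 0.24. Over libraries Il1b ran from 4391 to 15236 CPM in the neutrophil barcodes and from 155 to 2957 CPM in the monocyte barcodes. Il6 (3.78 ± 0.40), Il10 (2.98 ± 0.22) and Areg (3.06 ± 0.27) rose from few transcripts, and 1 barcode held between 16.7 and 63.6% of the members' Il6 UMIs, 27.3 to 86.4% of Il10 and 27.8 to 93.3% of Areg. Acod1, which makes itaconate, rose by 3.40 ± 0.21, and Ptgs2, the inducible cyclooxygenase, by 2.46 ± 0.20. On day 0, 1 barcode held 74.7% of the members' Acod1 UMIs. Of 6 inflammasome genes only Nlrp3 passed (2.75 ± 0.10), and Casp1, Casp4, Pycard, Gsdmd and Nek7 did not. Mir155hg, the host transcript of the microRNA miR-155, stood at 20.3 to 40.2 CPM in members and 1.97 to 3.09 CPM in other C1q macrophages (3.81 ± 0.23), and Csrnp1, a nuclear protein gene, rose by 2.78 ± 0.14.

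Surface receptors followed in part. Of 14 sensors and costimulatory genes tested, 9 rose and none fell, among them Clec4e (3.40 ± 0.15), a receptor for dead cells and mycobacterial glycolipid, Cd14 (2.17 ± 0.16), Cd83 (1.60 ± 0.14), Tlr2 (1.51 ± 0.15) and Cd274, which encodes PD-L1 (1.15 ± 0.17). Tlr4 stood between 7.39 and 19.9 CPM in members and 9.28 and 16.9 CPM in other C1q macrophages (adjusted p = 0.85, edgeR). Of the receptors for the 3 mediators, Tnfrsf1b rose by 0.85 ± 0.16, and Tnfrsf1a and Il1r2 did not pass. Cxcr2, the receptor for CXCL1, had 0 UMIs in members, whereas neutrophils, defined by their own markers in 51 barcodes, held a median of 331 CPM over libraries.

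Immediate early genes were higher in 18 of 20 cases, with none lower (median 1.23), and in 11 without the library block. Dusp1 rose by 1.73 ± 0.14, Egr1 by 1.71 ± 0.16, Nr4a1 by 1.70 ± 0.12, Atf3 by 1.51 ± 0.13 and Fos by 0.89 ± 0.10, while Egr3 and Myc did not pass. Of 10 heat shock genes 4 rose, Hspa8 by 0.62 ± 0.10, with Hspa1a, Hspa1b and Dnaja1, but 2 rose without day 0, without control day 7 or without L-fuc day 7, and none without the library block. Hspa1a and Hspa1b are near-identical copies whose reads may be divided by the counting.

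Some genes of resident and alternatively activated macrophages were lower. Retnla, a secreted protein induced by IL-4, stood at 3.69 CPM on day 0, 1.15 in control day 7, 1.30 in L-fuc day 7, 15.0 in control day 21 and 1.99 in L-fuc day 21, against 22.1, 34.7, 7.29, 446 and 388 CPM in other C1q macrophages. The difference was -5.08 ± 0.31 (adjusted p = 4.1e-08, edgeR), and the members held 2, 1, 2, 30 and 2 UMIs of it in the order of libraries above. Few barcodes carried it in either class: it was found in 4.00, 0.960, 0.8, 2.86 and 8.18% of other C1q macrophages and in 2.94, 0.971, 1.75, 4.26 and 4.17% of the deeper members. After thinning to 3000 UMIs it was found in 3.57, 0.980, 0.883, 2.71 and 4.76% of other C1q macrophages, in 0.735% of members in control day 21 and in none in the other libraries. Mgl2 (-2.41 ± 0.37), a lectin, also fell, and of 8 resident macrophage genes tested Folr2 (-2.14 ± 0.31), F13a1 (-2.11 ± 0.30) and Mrc1 (-0.63 ± 0.17) fell and 5 did not pass. Without control day 21, Retnla, Folr2 and F13a1 were too low to be tested, Mrc1 did not pass (-0.42) and Mgl2 still fell (-2.77). The level of Folr2 was lower in members in 4 of 5 libraries, the exception being control day 7 (8.03 against 7.01 CPM, on 7 and 23 UMIs). None of these 5 genes passed without the library block. Ciita, the master regulator of MHC class II, fell by 0.91 on the log2 scale (adjusted p = 0.0039, edgeR), whereas H2-Aa, H2-Ab1, H2-Eb1, Cd74, H2-DMa and H2-DMb1 did not pass. The Ciita call was also lost without that block, where 2 of all genes tested were lower. Lower genes also included transcripts of other cells, namely Sparc (-1.73 ± 0.29), Nkg7 (-1.74 ± 0.40), Ecrg4 (-1.64 ± 0.30) and Ighm (-1.64 ± 0.45). All 3 tumor markers tested and the red cell gene Hbb-bt were among the lower genes. With barcodes that held more than 2 UMIs of other cell types' markers left out, 114 of 6997 genes were lower in place of 225 of 8385.

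Of 12 macrophage identity genes 4 rose by 0.33 to 0.51, among them Itgam, Adgre1 and Cd68, and none fell. Of 10 lipid and phagocytic genes 5 rose, Lpl most (0.74 ± 0.13), and of 12 hypoxia and glycolysis genes 4 rose, Hilpda by 2.13 ± 0.15 and the others by at most 0.55. The hypoxia and glycolysis count was 7 without L-fuc day 7, 2 without control day 7, without control day 21 or by DESeq2, and 1 without the library block. None of the identity or lipid genes passed without that block. None of the 8 fucose supply and transfer genes tested passed (median 0.00, where 6.24% of all genes were higher and 2.68% lower), and Fut8 was the nearest at an adjusted p of 0.064 by edgeR.

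**Figure D2:**
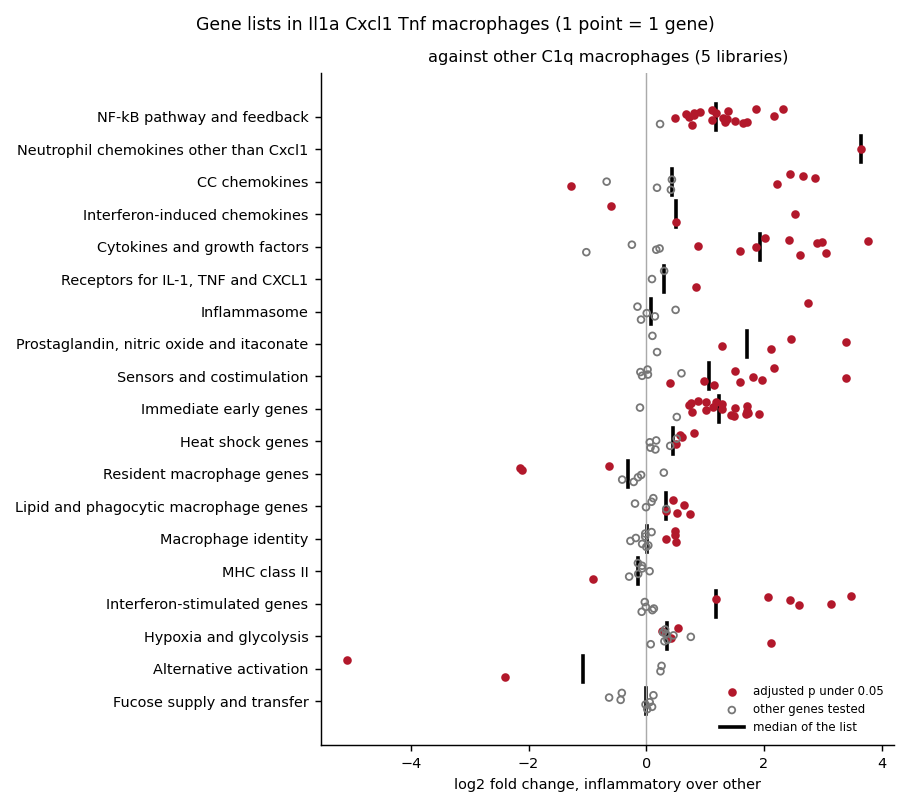
Log2 difference of each gene tested (points, filled where the adjusted p was under 0.05) and its list's median (bars), members over other C1q macrophages. The NF-kB list has a median of 1.19 and the immediate early list one of 1.23, whereas the fucose supply and transfer list sits at 0.00.

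The rule's threshold lay on a slope. Over members and other C1q macrophages grouped by their Il1a, Cxcl1 and Tnf sum (0, 1 to 2, 3 to 4, 5 to 9, 10 to 19, 20 to 49, and 50 or more UMIs, with 985, 372, 119, 127, 98, 130 and 85 barcodes), the median level over libraries of Cxcl2 was 131, 381, 495, 940, 1172, 2719 and 7067 CPM. Nfkbia was at 434, 605, 1063, 1554, 1933, 2641 and 3762 CPM. Ifnb1 went from 10.5, 18.0, 43.0 and 64.7 CPM to 372, 390 and 406 CPM, so the median rose most between the 5 to 9 and the 10 to 19 group. On day 0 the 10 to 19 and the 20 to 49 group, of 5 and 7 barcodes, held no Ifnb1 UMI. C1qb stood at 6197 CPM in the lowest group and 4864 CPM in the highest. The bins were not corrected for depth.

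**Figure D3:**
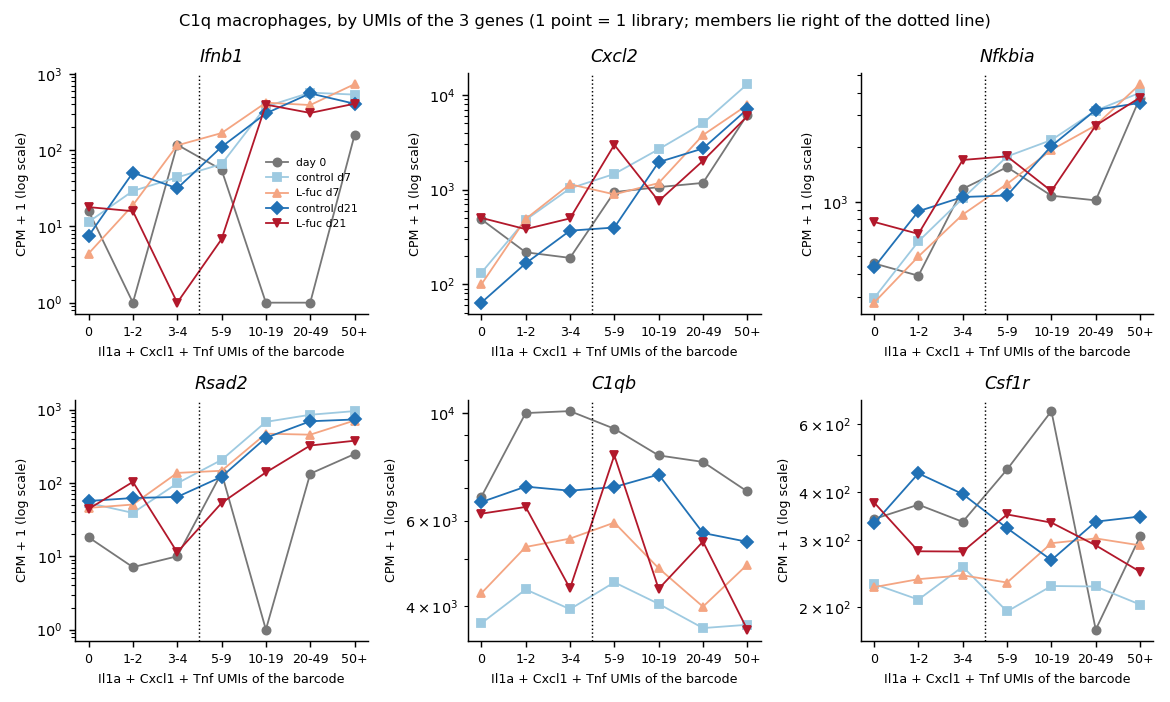
Level in CPM (log axis) of selected genes in C1q macrophages grouped by their summed Il1a, Cxcl1 and Tnf UMIs, with 1 point per library and group, joined by lines within a library; members lie right of the dotted line. Cxcl2 and Nfkbia are highest in the group of 50 or more UMIs in each library, while C1qb and Csf1r show no such climb.

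Members made up 25.4% of members and other C1q macrophages together on day 0 (exact binomial 95% interval 18.3 to 33.6), 16.5% in control day 7 (13.7 to 19.7), 18.6% in L-fuc day 7 (15.6 to 21.9), 36.5% in control day 21 (31.7 to 41.6) and 30.4% in L-fuc day 21 (23.3 to 38.2). On these unthinned counts the day 21 libraries were the highest, and within a day the intervals of control and L-fuc overlapped. The ratio of L-fuc to control was 1.12 on day 7 (0.854 to 1.48) and 0.832 on day 21 (0.586 to 1.16). With the rule applied to barcodes thinned to 3000 UMIs, the shares were 15.8, 14.4, 11.4, 20.3 and 18.1% in the same order. L-fuc day 7 was then the lowest library. The day 0 interval (10.4 to 22.6) overlapped those of control day 21 (16.5 to 24.6) and L-fuc day 21 (12.5 to 24.8). The day 7 ratio was then 0.792, on the other side of 1. Without thinning, the shares among all barcodes past the gene and mitochondrial limits were 3.00, 0.721, 1.71, 12.2 and 7.54%. Their ratios were 2.36 (1.80 to 3.12) on day 7 and 0.619 (0.436 to 0.864) on day 21. This denominator held the tumor, T cell and other barcodes that each sort delivered.

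**Figure D4:**
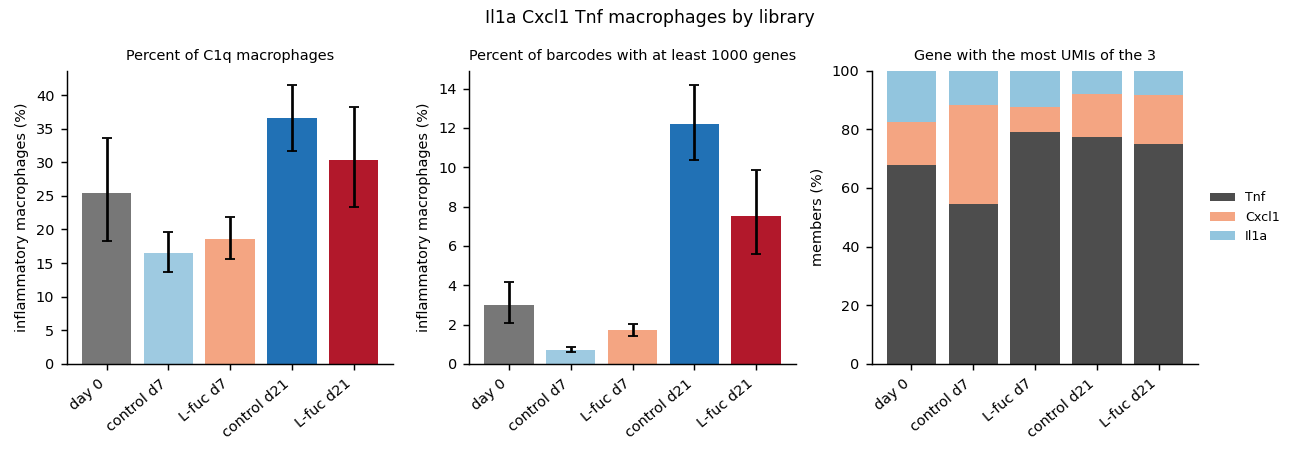
Share of members in percent in each library, among members and other C1q macrophages together and among all barcodes past the gene and mitochondrial limits, with exact binomial 95% intervals, and the percent of members in which each of the 3 genes of the rule gave the most UMIs. Among C1q macrophages, on unthinned counts, control day 21 is highest at 36.5% and control day 7 lowest at 16.5%. With the rule applied after thinning (not drawn), L-fuc day 7 was lowest at 11.4%.

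Whether L-fuc changed the members' transcripts could be described but not tested. A gene counted as past the fold at a log2 ratio of 1 in either direction, provided that both libraries summed to 30 UMIs or more, and 1 UMI was added to each sum. On day 7, 127 of 6611 genes were higher in L-fuc (1.92%) and 308 lower (4.66%), with a median log2 ratio of -0.08. The counts were 197 higher and 234 lower with TMM scaling, and 52 and 294 with a pseudocount of 5. On day 21, 108 of 7216 were higher (1.5%) and 95 lower (1.32%), with a median of 0.00.

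The extreme genes came largely from single barcodes. On day 7 the highest ratios belonged to Igkv12-41, Cma1, Ighv5-6, Ighv5-9-1 and Ighv5-4, and 1 barcode of L-fuc day 7 held 518 of 529 Igkv12-41 UMIs, while another held 334 of 336 UMIs of the mast cell protease gene Cma1. On day 21 they belonged to Igkv3-7, Ighv1-82, Igha, Jchain and Ighv1-83, and 1 barcode of L-fuc day 21 held 21981 of 21985 Igkv3-7 UMIs. The lowest on day 7 were Hamp, Cxcl3, Adamts1, Ak5 and Kbtbd11, with 31 of 32 Hamp UMIs and 29 of 48 Cxcl3 UMIs of control day 7 in 1 barcode each. Of these genes and the 5 lowest of day 21, only Ak5, Igha, Pf4, Areg and Tgfb3 still had enough UMIs for a ratio when each gene's highest barcode of each library was left out, in an alternative chosen after the data had been seen. Adamts1, Kbtbd11 and F13a1 held few UMIs, so their loss does not show that 1 barcode carried them. Their highest barcode held 25, 12 and 38.9% of the control UMIs. Igha went from a log2 ratio of 10.78 to 5.60. Ak5, an adenylate kinase, had a log2 ratio of -3.23 on day 7 and -3.26 without that barcode, and on day 21 Pf4 (platelet factor 4) had -2.83 and -2.58, Areg -2.45 and -2.39, and Tgfb3 -2.42 and -2.32.

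All 7 MHC class II genes, which present antigen to CD4 T cells, had a log2 ratio above 0 on day 7 (median 0.82, against -0.08 over all genes), and only Ciita passed the fold (1.37, counting interval 0.63 to 2.35). H2-Ab1 stood at 3994 CPM on day 0, 2711 in control day 7, 5132 in L-fuc day 7, 3974 in control day 21 and 3767 in L-fuc day 21, and Cd74 at 31919, 16822, 28171, 22033 and 20268 CPM. Control day 7 was the lowest library for both, below day 0 as well as L-fuc day 7. Other C1q macrophages had the same order within day 7, with H2-Ab1 at 2914 CPM in control and 5053 CPM in L-fuc and Cd74 at 15636 and 23344 CPM. On day 21, 1 of the 7 genes, H2-DMb1, was above 0, and the median was -0.10.

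Among inflammatory genes, Cxcl9 was higher on day 7 in L-fuc, at 1406 CPM against 340 CPM (log2 ratio 2.05, counting interval 1.87 to 2.23), and was at 1115 and 649 CPM in other C1q macrophages. Its day 21 ratio was 0.25. Ccl12 had a day 7 ratio of 1.48. Il10 was lower on day 7 (-1.94, -2.56 to -1.40) on 38 and 84 UMIs, of which 1 barcode held 68.4 and 31.0%. The 21 NF-kB genes had medians of 0.16 and -0.13, and none was past the fold on either day, which is near the shares of all genes past it (1.92% higher and 4.66% lower on day 7, 1.5 and 1.32% on day 21). Of 20 immediate early genes 18 were above 0 on day 7 (median 0.60), with Jun at 0.88 and Fos at 0.63, and 2 of 19 on day 21 (median -0.20). Ifnb1 had ratios of 0.24 (0.04 to 0.44) and -0.26 (-0.46 to -0.07). Fabp5 was lower on both days, at -1.37 and -2.29. On day 21 the interferon-stimulated genes Oasl1 (-1.53) and Rsad2 (-1.01) were also past the fold.

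**Figure D5:**
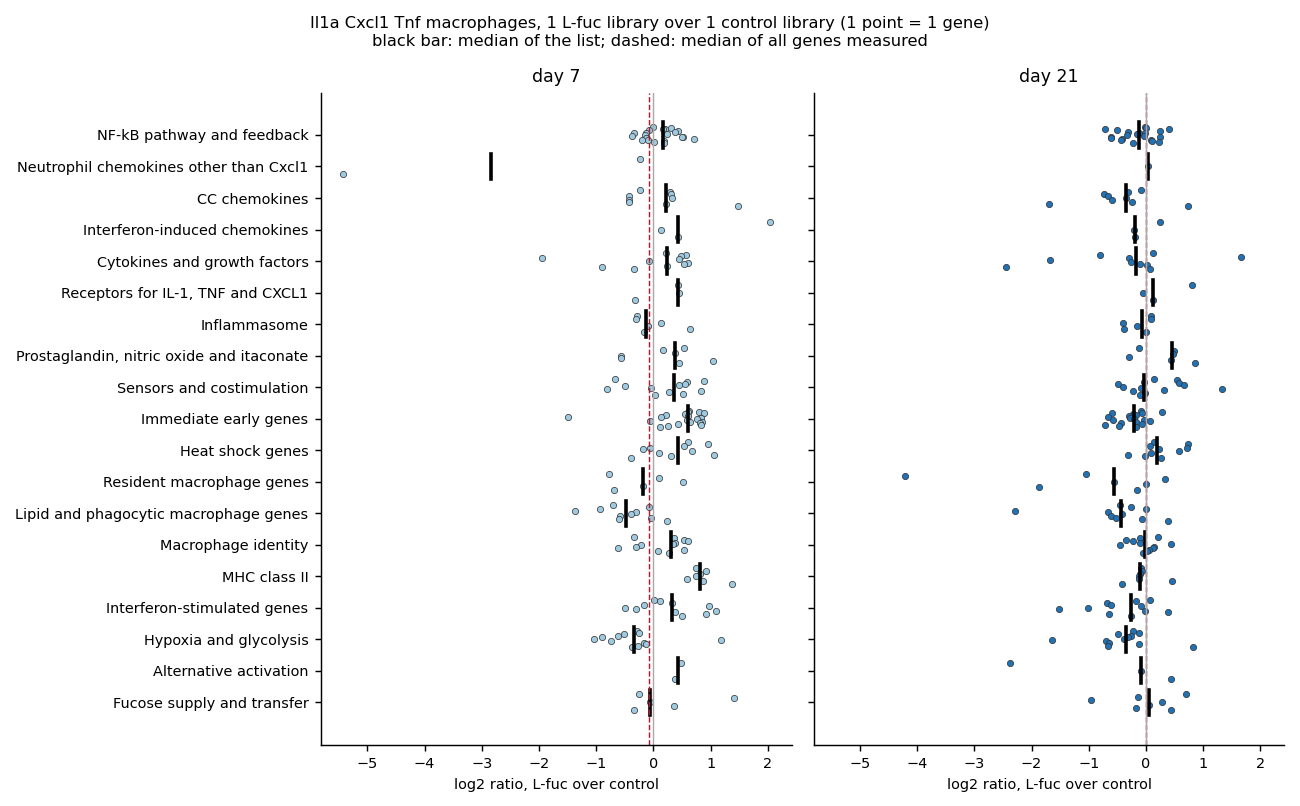
Log2 ratio of L-fuc over control within the members on day 7 and day 21, with 1 point per gene, bars for list medians and a dashed line for the median of all genes measured; each day compares 1 library with 1 library. The MHC class II genes lie above 0 on day 7 with a median of 0.82 and near 0 on day 21 with a median of -0.10.

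Markers of other cells moved between these libraries too. The 5 red cell markers, led by Hbb-bs, summed to 0, 468, 1397, 7.51 and 2.98 CPM in the members in the order of libraries above, and in L-fuc day 7 all 4 of them measured were past the fold. The 5 mast cell and basophil markers, led by Cpa3, summed to 154 CPM in L-fuc day 7 and to 0 to 3.44 CPM in the other libraries, and the 5 fibroblast markers to 0, 59.7, 205, 6.51 and 0.994 CPM. In L-fuc day 7 Cpa3 and Mcpt8 had 104 and 94 UMIs against 1 and 0, and Col1a1 had 139 against 4, but 1 barcode held 98.1% of these Cpa3 UMIs, 98.9% of Mcpt8 and 98.6% of Col1a1, and 41.1% of Hbb-bs. On day 7, 4 monocyte markers were measured, 2 past the fold upward and 1 downward (median 0.99). Plac8 had 70 UMIs in L-fuc day 7 against 6 in control day 7, and Ccr2 had 51 against 13. Their highest barcode held 38.6 and 27.5% of the L-fuc day 7 UMIs. Csf3r, the only neutrophil marker measured, had 62 UMIs against 14 (log2 ratio 1.25). By contrast, the tumor genes Sparc and Sox10 were lower by 1.36 and 1.59 on the log2 scale. In L-fuc day 21 Ly6c2 had 79 UMIs against 0, Gzma 53 against 0 and Cd79a 76 against 13, with 75.9, 100 and 48.7% of them in 1 barcode. The 4 B cell markers summed to 143 CPM there and 51.1 CPM in control day 21. With immunoglobulin genes and all these markers left out, the MHC class II medians were 0.82 and -0.04, and the immediate early medians 0.60 and -0.14. Leaving genes out changes only the total of each library, so these medians cannot show whether other cells supplied the listed transcripts.

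Over time in the untreated libraries, the day 0 members stood low in interferon genes. All 10 interferon-stimulated genes measured had a log2 ratio above 0 in control day 7 over day 0 (median 1.19, against 0.10 over all genes), and Ifnb1 had a ratio of 2.14 (counting interval 1.70 to 2.66) on 311 and 43 UMIs. Rsad2 went from 168 to 612 CPM and Ifit1 from 102 to 256 CPM. In other C1q macrophages Rsad2 went from 12.2 to 51.8 CPM and Ifit1 from 16.6 to 21.6 CPM, while Ifnb1 went from 22.1 to 18.0 CPM. Only 5 of the 34 day 0 members held an Ifnb1 UMI, and their highest barcode held 32.6% of those UMIs. MHC class II ran the other way, with 0 of 6 genes above 0 (median -0.67). From control day 7 to control day 21 all 7 of its genes were above 0 (median 0.44), and 18 of 20 immediate early genes were (median 0.61). The MHC class II course was not particular to the members. In other C1q macrophages H2-Ab1 held 4822 of 904932 UMIs on day 0, 9560 of 3280979 in control day 7 and 11524 of 2541080 in control day 21. Cd74 held 39291, 51302 and 60252 of the same totals. As shares of UMIs, both were lowest in control day 7. Both comparisons over time and that of L-fuc on day 7 share the control day 7 library. The members' median share of mitochondrial transcripts was 0.223% on day 0, the lowest of the 5 libraries, and 1.76% in control day 7. In control day 7 over day 0, 669 of 4785 genes were past the fold upward and 144 downward. In the same comparison, all tumor (2), red cell (2), fibroblast (1), NK cell (1) and mature dendritic cell (1) markers measured were past the fold upward. Of 3 monocyte markers 1 was upward and 2 downward. The part of these differences in the interferon values was not tested.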

How the data were processed

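CD45+ cells from SW1 tumors were profiled by droplet sequencing in 5 gene expression libraries and 5 T cell receptor libraries. The deposited matrices hold UMI counts per gene and barcode, which the authors made with Cell Ranger on the mm10 transcriptome (version 3.0 in the submitters' processing notes, 7.1.0 in the matrix header; the notes also name Seurat 4.0). The authors' own doublet removal and clustering are not part of these files. The T cell receptor contig tables hold deposited UMI counts and were used only to mark barcodes. Depth per library is given above, and more deeply sampled sums have narrower counting intervals.

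Members and gene lists were chosen with earlier results of these data known. Counts were summed per library and class and tested with edgeR 4.0.16 (TMM, filterByExpr, quasi-likelihood, library as block; R 4.3.3), with DESeq2 1.42.0 as an alternative. On simulated data with 200 genes changed, the comparison with other C1q macrophages recovered 100% of 2-fold and 50% of 1.5-fold increases and 82% of 2-fold decreases (8392 genes). The simulation gave all genes the same dispersion and did not select barcodes by the rule, so these rates need not hold for the real comparison. Named genes were list members, the 12 highest and 8 lowest called genes of that comparison with the same direction in every library and at least 20 CPM, and the 5 highest and 5 lowest ratios of L-fuc over control. Intervals are exact 95% intervals (Poisson or Clopper-Pearson). Scrublet (scanpy 1.11.5) by its own cutoff marked between 0 and 2 barcodes a library, fewer than a working caller would, so the top-scoring barcodes at the stated 0.08% per 1000 were removed in an alternative only. Samples share no replicate, so p-values measure how the class difference within a library varied over 5 libraries of different condition. Promoters came from RefSeq. 1 gene of the rule and 1 planned comparison are not reported here.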

Additional observations from a re-analysis of the deposited data

Results flagged for a closer look

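The ratio of L-fuc to control in the share of members lay on opposite sides of 1 on the 2 days. Among all barcodes past the gene and mitochondrial limits it was 2.36 on day 7 and 0.619 on day 21, and among members and other C1q macrophages together it was 1.12 (0.854 to 1.48) and 0.832 (0.586 to 1.16), with 1 inside both counting intervals. With the latter denominator and the rule applied after thinning, both days lay below 1, at 0.792 (0.568 to 1.10) and 0.890 (0.565 to 1.37). The difference between days was not tested, since each condition was 1 library.

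Within the members, nearly all genes of a pair of lists lay above 0 on day 7 and below 0 on day 21. Of the immediate early genes 18 of 20 and 2 of 19 were above 0, with median log2 ratios (L-fuc against control) of 0.60 and -0.20, and of the MHC class II genes 7 of 7 and 1 of 7, with medians of 0.82 and -0.10. A median above 0 on day 7 and below 0 on day 21 was not particular to them: it was 0.32 and -0.27 for interferon-stimulated genes, 0.23 and -0.34 for CC chemokines, 0.24 and -0.18 for cytokines and growth factors, and 0.16 and -0.13 for NF-kB genes. The difference between days was not tested. On day 21, H2-Aa and Fos turned above 0 after thinning, and H2-Ab1 did so with the highest barcodes left out. Control day 7 was the lowest of the 5 libraries in H2-Ab1 and Cd74.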

How the results depend on the processing

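Against other C1q macrophages, the counts of higher and lower genes were 341 and 90 of 8222 tested by DESeq2 and 280 and 75 of 3787 after thinning, against 523 and 225 of 8385. Without a filter on low counts 672 were higher and 523 lower of 17918, which moved the share of higher calls from 69.9 to 56.2%. That share was 79.1% by DESeq2. With barcodes carrying other cells' markers left out 114 of 6997 were lower. Leaving out each library gave 345 to 547 higher and 76 to 250 lower, of 7874 to 9108 tested. Without the library block that pairs the classes the counts were 159 and 2 against other C1q macrophages (98.8% higher). No named gene reversed in that comparison under any of these. No paired analysis was possible because each condition was 1 library, for the comparisons between conditions.

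The share of members among barcodes past the limits was, with a threshold of 3 UMIs, 0.980% in control day 7, 2.32% in L-fuc day 7 and 14.3% in control day 21, with a threshold of 10, 0.483, 1.14 and 9.33%, and with the rule applied after thinning, 1.14% in L-fuc day 7, 7.57% in control day 21 and 5.12% in L-fuc day 21. With C1q macrophages as denominator the 5 shares were 25.4, 16.5, 18.6, 36.5 and 30.4%, and 15.8, 14.4, 11.4, 20.3 and 18.1% with the rule applied after thinning. The day 7 ratio of L-fuc over control was 1.12 with that denominator, 1.65 after thinning, and 0.792, reversed, with both; the day 21 ratio was 0.890 with both. The cause was not tested.

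Of 6611 genes on day 7, a pseudocount of 5 left 52 higher and 294 lower past the fold, and a minimum of 10 UMIs gave 314 higher and 923 lower of 9644. Thinning gave 54 and 93 of 2516, and TMM scaling, which moved all log2 ratios by 0.14, gave 197 higher and 234 lower of 6611. On day 21 a pseudocount of 5 left 36 lower of 7216, and TMM scaling gave 104 and 109 of 7216. A minimum of 10 UMIs gave 392 and 305 of 9685, and thinning 47 and 79 of 2387. In alternatives chosen after seeing the data, leaving out immunoglobulin genes and other cells' markers gave 136 and 80 of 7198. Leaving out the highest barcodes gave 104 and 104 of 6755. On day 21 thinning reversed Il1a (0.12; a gene of the rule), H2-Aa (0.13) and Fos (0.20), and leaving out the highest barcodes reversed H2-Ab1 (0.011). TMM scaling reversed Ccl4, control day 7 over pretreatment day 0 within the members (-0.032). Depth limits low genes most, and conditions rest on 1 library each.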
